A study of Mus musculus with 5 samples.

Results

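The receptors through which dermal group 2 innate lymphoid cells (dILC2s) sense IL-33, IL-25, TSLP, IL-18 and IL-1 were examined in the RNA of sorted dILC2s. The 8 genes were taken by symbol from the deposited count table (8 of 47729 genes). No value enters the rule, although the list was drawn up with earlier results of these data known. They were *Il1rl1*, *Il17rb*, *Crlf2*, *Il18r1*, *Il18rap*, *Il1rap*, *Il1r1* and *Il1r2*, and all 8 passed the filter on low counts. The libraries came from skin of WT C57BL/6 mice (pools 5, 6 and 13) and of *Rag1*-/- mice on the same background (pools 2 and 7). By the study's methods 10 mice were combined per WT library and 9 per *Rag1*-/- library, which makes 18 *Rag1*-/- mice where the labels gave 16. The mice were female, 8 to 13 weeks old and untreated as far as the labels say, and the cells were not stimulated after sorting. *Rag1*-/- mice carry a germline deficiency and lack mature T and B cells, so that the cells came from hosts with another lymphoid compartment. The labels named the *Rag1*-/- cells type 3 innate lymphoid cells, while the study's design text and methods called both groups dILC2s.

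Alarmins are cytokines released by damaged or stressed epithelial and stromal cells. IL-33 is bound by the ST2 chain (*Il1rl1*) with the accessory protein IL-1RAP, IL-25 by IL-17RB with IL-17RA, and TSLP by the TSLP receptor chain (*Crlf2*) with IL-7Rα. IL-18 and IL-1 use receptors of the same family as ST2 and signal through MyD88 and IRAK kinases, whereas the TSLP receptor signals through JAK kinases and STAT5. In ILC2s these inputs are known to drive release of IL-5 and IL-13, and the skin is a tissue in which ILC2s are known to use IL-18 beside IL-33 and TSLP.

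The libraries held between 32939428 and 39477243 counts on genes, except *Rag1*-/- pool 2 with 8050562, in which 3 counts equal 0.373 CPM, the count as a share of its library's total. The *Rag1* gene had 4, 0 and 5 counts in the WT pools and 5 and 48 counts in *Rag1*-/- pools 2 and 7 and did not pass the test (adjusted p = 0.0866, edgeR). It was not lower in the libraries labelled *Rag1*-/-. Genotypes are given here as labelled. Leukocyte RNA differed between the libraries. For the counts of marker genes below, edgeR called 3.57% of all genes tested higher and 2.16% lower. DESeq2 called 7.22% higher and 7.59% lower. The geometric mean of 32 pan-leukocyte genes was 21.3, 49.4 and 50.2 CPM in WT pools 5, 6 and 13 and 170 and 145 CPM in *Rag1*-/- pools 2 and 7, and 22 of the 32 genes rose (31 with DESeq2). The summed level of 17 keratinocyte markers ran from 30900 to 43500 CPM in WT and was 8120 and 17500 CPM in *Rag1*-/- libraries, and 8 of the 17 fell (14 with DESeq2). The 18 ILC2 markers had 6 genes that rose and none that fell, with summed levels of 1580 to 2980 CPM against 7580 and 5860 CPM. DESeq2 called 13 of the 18 higher, and with scaling on the pan-leukocyte genes none was higher, 1 was lower and their median log2 fold change was 0.07. Of 9 ILC3 markers 7 rose (8 with DESeq2), with summed levels of 110 to 144 CPM against 517 and 394 CPM. With scaling on the pan-leukocyte genes 3 of the 9 were higher and none was lower, with a median log2 fold change of 0.59. That scaling also called 2 of 10 NK and ILC1 markers higher and none lower (median log2 fold change 0.31). Of 4 neutrophil markers tested it called 1 higher and 2 lower. Higher calls were thus not confined to the ILC3 list. Over all genes tested it called 0.0842% higher and 70.6% lower. In such bulk RNA, fewer cells of a type and less RNA per cell cannot be told apart.

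Of the 8 receptors, 1 rose in the *Rag1*-/- libraries and none fell. A gene was called when its adjusted p was below 0.05 and its level differed by more than 1 on the log2 scale, in a quasi-likelihood test of edgeR with Benjamini-Hochberg adjustment over 19011 genes. Over all genes tested, 5.73% passed, 3.57% as higher and 2.16% as lower. The receptor that rose was *Crlf2*. An unadjusted p under 0.05 was found for 5 of the 8 receptors and for 5022 of the 19011 genes. *Il18r1*, *Il18rap* and *Il17rb* were higher in both *Rag1*-/- libraries than in every WT library, and *Il1rap* was lower, without passing the adjusted threshold. Such separation of the groups is common here, since 21.9% of all genes tested were higher without overlap and 24.0% lower without overlap, 45.9% in all. DESeq2 called 4 of the 8 as higher, where it called 7.22% of all genes higher and 7.59% lower (14.8% in all). The median log2 fold change of the receptors was 1.33 against 0.02 over all genes, but it was -0.77 when the libraries were scaled on the pan-leukocyte genes, a scaling that moved the median of all genes to -2.19. Under that scaling *Crlf2*, *Il17rb*, *Il1rl1*, *Il18r1* and *Il1r2* changed sign.

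**Figure D1:**
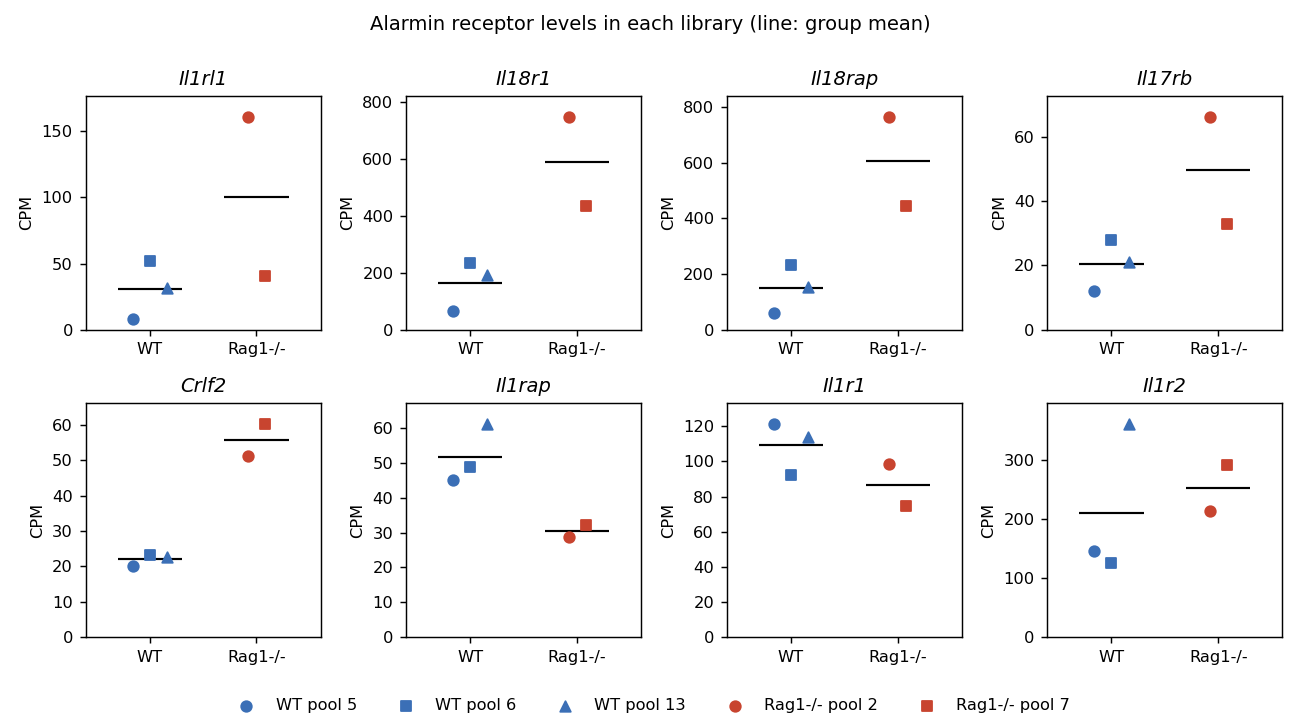
Level of each receptor (CPM) in the 3 WT and 2 *Rag1*-/- libraries (points, linear axes from 0), with the group mean as a line. The groups separate upward for *Crlf2*, *Il17rb*, *Il18r1* and *Il18rap* and downward for *Il1rap*, and they overlap for *Il1rl1*, *Il1r1* and *Il1r2*. The first 3 named turn to lower values when scaled on the pan-leukocyte genes.

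*Il1rl1*, the IL-33-binding chain ST2 (ENSMUSG00000026069, GRCm38 chromosome 1, 40429570 to 40465415), had 8.17, 52.1 and 31.8 CPM in WT pools 5, 6 and 13. It had 161 and 40.4 CPM in *Rag1*-/- pools 2 and 7, from 1295 and 1572 counts. The groups overlapped, since *Rag1*-/- pool 7 lay below WT pool 6, and WT pool 5 was the lowest of all. Group means were 30.7 CPM ± 22 (SD, n = 3) and 101 CPM ± 85.2 (SD, n = 2). The log2 fold change of 1.71 (standard error 0.77, 95% interval -0.10 to 3.53) did not pass (adjusted p = 0.211, edgeR). Much of it rested on 1 library: without *Rag1*-/- pool 2 the log2 fold change was 0.46. *Il1rl1* had the largest standard error of the 8 receptors, and its interval included 0. The counts are per gene, so that transcripts for the membrane-bound and the soluble form of ST2 were not separated.

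*Il1rl1* has a distal and a proximal start in RefSeq. Both are printed because the gene and its neighbours on chromosome 1 carried the highest receptor fold changes. The windows are the bases before each start on the plus strand of GRCm38.p6, and the proximal one lies in an intron of the gene model. Capitals mark the letters searched on both strands, a GATA motif (AGATAA, or with T as its first letter, which reads TTATCT and the like on the other strand) and a ROR motif (AGGTCA).
Il1rl1 distal, chr1:40429320-40429569: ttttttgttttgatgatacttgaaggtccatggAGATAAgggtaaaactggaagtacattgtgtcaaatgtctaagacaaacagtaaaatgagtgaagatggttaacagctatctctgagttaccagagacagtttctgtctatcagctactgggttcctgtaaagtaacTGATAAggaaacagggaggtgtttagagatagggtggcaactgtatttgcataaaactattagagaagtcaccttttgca
Il1rl1 proximal, chr1:40439379-40439626: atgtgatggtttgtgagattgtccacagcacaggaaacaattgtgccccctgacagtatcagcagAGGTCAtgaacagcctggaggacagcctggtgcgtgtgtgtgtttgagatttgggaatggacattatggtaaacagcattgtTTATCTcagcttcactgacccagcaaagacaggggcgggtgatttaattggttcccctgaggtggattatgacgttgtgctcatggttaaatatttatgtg
The distal window held 2 GATA matches, and the proximal window 1 GATA and 1 ROR match. Of 32851 promoter windows of up to 250 bases, 16.6% held the GATA letters and 14% the ROR letters. A match is a description of letters and not a site.

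*Il17rb*, the IL-25-binding chain (ENSMUSG00000015966, chromosome 14, 29996141 to 30008896), had 12, 28.0 and 21.1 CPM in WT pools 5, 6 and 13. It had 66.2 and 33.0 CPM in *Rag1*-/- pools 2 and 7. Both *Rag1*-/- libraries lay above all WT libraries, with *Rag1*-/- pool 7 close to WT pool 6. The log2 fold change was 1.30 (standard error 0.41, 95% interval 0.34 to 2.26) and did not pass (adjusted p = 0.103, edgeR), whereas DESeq2 called it (adjusted p = 0.0263). Of its exonic bases 3.80% are shared with *Actr8* on the other strand, and reads there cannot be told apart in a library that does not mark the strand.

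*Crlf2*, the TSLP-binding chain (ENSMUSG00000033467, chromosome 5), had 20.2, 23.3 and 22.8 CPM in WT pools 5, 6 and 13. It had 51.2 and 60.1 CPM in *Rag1*-/- pools 2 and 7. The WT libraries differed little from each other, and both *Rag1*-/- libraries were higher than any of them. The means were 22.1 CPM ± 1.68 (SD, n = 3) and 55.6 CPM ± 6.29 (SD, n = 2). *Crlf2* rose by 1.37 on the log2 scale (standard error 0.19, 95% interval 0.91 to 1.82, adjusted p = 0.0306, edgeR), but relative to the pan-leukocyte genes its fitted value was -0.80 (adjusted p = 0.287). With a library left out the call was lost in 4 of 5 cases, at adjusted p-values of 0.0648, 0.0917 and 0.109 without WT pools 5, 6 and 13 and of 0.0659 without *Rag1*-/- pool 2. In these 4 fits no gene at all passed, although 3521 to 5200 genes had an unadjusted p under 0.05. Over the 5 fits the log2 fold change of *Crlf2* ranged from 1.15 to 1.51. *Crlf2* was the receptor with the smallest standard error, unlike *Il1rl1* with 0.77.

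The window before the *Crlf2* start is printed because *Crlf2* was the receptor that passed the test. It lies on the minus strand of GRCm38.p6, and capitals mark the RUNX letters TGTGGT, here read on the opposite strand as ACCACA.
Crlf2, chr5:109558994-109559243: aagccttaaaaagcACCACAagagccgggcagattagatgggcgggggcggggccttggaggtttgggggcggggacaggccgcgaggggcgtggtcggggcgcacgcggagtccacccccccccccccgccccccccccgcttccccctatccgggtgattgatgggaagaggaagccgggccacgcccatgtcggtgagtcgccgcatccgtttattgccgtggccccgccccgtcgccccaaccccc
The window held 1 such match, where 14% of promoter windows held these letters, and none of the GATA, ROR or AP-1 letters (TGACTCA or TGAGTCA, in 4.46% of windows).

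The chains of the IL-18 receptor had the highest fold changes of the 8. *Il18r1*, the binding chain (ENSMUSG00000026070, chromosome 1, 40465552 to 40500854), had 64.1, 234 and 191 CPM in WT pools 5, 6 and 13 and 748 and 433 CPM in *Rag1*-/- pools 2 and 7. *Il18rap*, the signalling chain (ENSMUSG00000026068, chromosome 1, 40515362 to 40551705), had 58.3, 232 and 154 CPM in the same WT pools and 765 and 446 CPM in the *Rag1*-/- pools. In both genes WT pool 5 was the lowest library, *Rag1*-/- pool 2 the highest, and the groups did not overlap. The log2 fold change of *Il18r1* was 1.88 (standard error 0.51, 95% interval 0.67 to 3.09, adjusted p = 0.0749, edgeR). That of *Il18rap* was 2.05 (standard error 0.53, 95% interval 0.80 to 3.30, adjusted p = 0.066, edgeR). Neither passed with edgeR, while DESeq2 called both (adjusted p = 0.0032 and 0.00142). Scaled on the pan-leukocyte genes their values were -0.06 and 0.11.

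The *Il18rap* window on the plus strand of GRCm38.p6 is printed beside those of *Il1rl1*, since both genes lie in the same stretch of chromosome 1, with the GATA letters in capitals.
Il18rap, chr1:40515112-40515361: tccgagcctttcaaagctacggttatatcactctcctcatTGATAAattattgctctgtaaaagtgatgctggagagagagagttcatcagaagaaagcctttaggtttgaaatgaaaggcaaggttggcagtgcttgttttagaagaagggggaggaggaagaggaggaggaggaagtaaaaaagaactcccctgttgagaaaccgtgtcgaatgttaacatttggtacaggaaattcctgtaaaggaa
It held 1 GATA match and none of the other letters. The windows before the starts of *Il18r1*, which include exonic bases and are not printed, held no match. In the same stretch, the window of *Il1r2* held 1 GATA match and those of *Il1r1* none, and they are not printed either.

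*Il1rap*, the accessory chain shared by the IL-33, IL-1 and IL-36 receptors (ENSMUSG00000022514, chromosome 16), had 45.1, 48.9 and 61.0 CPM in WT pools 5, 6 and 13. It had 28.7 and 32.2 CPM in *Rag1*-/- pools 2 and 7, below all WT libraries. The log2 fold change was -0.72 (standard error 0.21, 95% interval -1.23 to -0.22) and did not pass (adjusted p = 0.0902, edgeR). DESeq2 gave an adjusted p of 0.0283 at a fold change under the threshold. Scaled on the pan-leukocyte genes it fell by 2.88 on the log2 scale (adjusted p = 0.00194, edgeR), in a fit that called 70.6% of all genes lower and 0.0842% higher. A stretch of 4.86% of its exonic bases is shared with *Gm20319* on the other strand.

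*Il1r1*, the signalling receptor of IL-1 (ENSMUSG00000026072, chromosome 1, 40225080 to 40317257), had 121, 92.4 and 114 CPM in WT pools 5, 6 and 13 and 98.5 and 74.5 CPM in *Rag1*-/- pools 2 and 7. The groups overlapped, and the difference of -0.31 on the log2 scale (95% interval -0.81 to 0.19) did not pass (adjusted p = 0.403, edgeR). *Il1r2*, the decoy receptor that binds IL-1 without signalling (ENSMUSG00000026073, chromosome 1, 40074079 to 40125231), had 146, 126 and 361 CPM in the WT pools and 215 and 292 CPM in the *Rag1*-/- pools. Its highest value was in WT pool 13, the groups overlapped, and the difference of 0.31 (95% interval -0.76 to 1.38) did not pass (adjusted p = 0.728, edgeR). Without *Rag1*-/- pool 7 it was -0.03. With the pan-leukocyte scaling *Il1r1* fell by 2.58 (adjusted p = 0.00433, edgeR) and *Il1r2* by 1.75 (adjusted p = 0.0306, edgeR). In that fit the median log2 fold change of all genes was -2.19 and 70.6% were called lower, so that *Il1r2* fell less than the median gene.

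**Figure D2:**
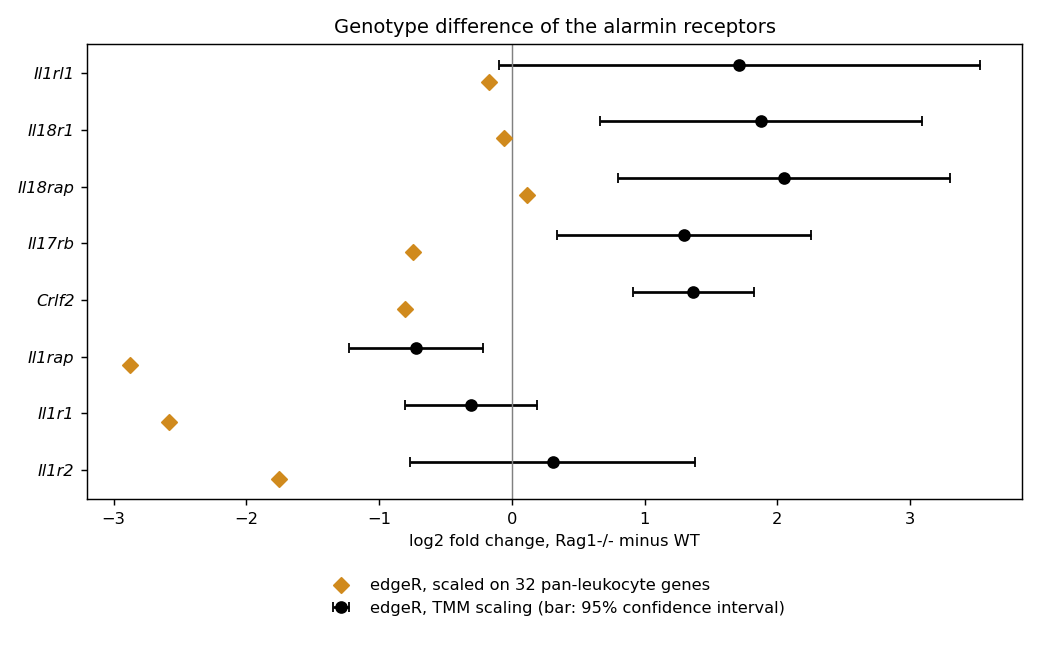
Log2 fold change of the 8 receptors, *Rag1*-/- minus WT, from edgeR with TMM scaling (circles, 95% intervals as bars) and with scaling on 32 pan-leukocyte genes (diamonds). With TMM scaling 6 receptors lie above 0 and 2 below; with the pan-leukocyte scaling *Il18rap* alone lies above 0, at 0.11.

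To compare levels between receptors, CPM were divided by the exonic length of each gene (CPM per kb, GENCODE M21 on GRCm38). The libraries also held RNA of other skin cells, with keratinocyte markers at 30900 to 43500 CPM in WT. The order is therefore one of bulk RNA and not of levels within dILC2s. In WT the order of mean levels was *Il1r2* (110 CPM per kb ± 68.2, SD, n = 3), *Il18r1* (33.9 ± 18.3), *Il18rap* (22 ± 12.9), *Il1r1* (17.2 ± 2.37), *Crlf2* (14.8 ± 1.13), *Il17rb* (5.49 ± 2.16), *Il1rap* (4.55 ± 0.731) and *Il1rl1* (4.45 ± 3.19). The library ranges of neighbours in this order overlapped, except between *Il1r2* and *Il18r1* and between *Crlf2* and *Il17rb*. In *Rag1*-/- libraries the order was *Il1r2* (133 CPM per kb ± 28.8, SD, n = 2), *Il18r1* (123 ± 46.3), *Il18rap* (89.7 ± 33.4), *Crlf2* (37.2 ± 4.21), *Il1rl1* (14.6 ± 12.4), *Il1r1* (13.6 ± 2.67), *Il17rb* (13.4 ± 6.33) and *Il1rap* (2.68 ± 0.221). Here neighbours did not overlap between *Il18rap* and *Crlf2*, between *Crlf2* and *Il1rl1* and between *Il17rb* and *Il1rap*. The chains of the IL-18 receptor thus stood above the ST2 chain in every library. The lengths matter for *Il1rl1*: with the transcript length given in the deposited table in place of exonic length, a choice made after seeing the data, its mean level was 25.3 CPM per kb in WT and 82.7 in *Rag1*-/- libraries, rank 4 in both.

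The receptors were next set against the leukocyte content of each library, as log2 of the CPM over the geometric mean CPM of the 32 pan-leukocyte genes. *Il18r1* was 1.59, 2.24 and 1.93 in WT pools 5, 6 and 13 and 2.14 and 1.58 in *Rag1*-/- pools 2 and 7. *Il18rap* was 1.46, 2.23 and 1.62 and, in *Rag1*-/-, 2.17 and 1.62. On this relative scale both genes overlapped between the groups, with differences of -0.06 and 0.13. *Il1rl1* also overlapped (difference -0.31). *Il17rb* (-0.78) and *Crlf2* (-0.73) were lower in both *Rag1*-/- libraries than in all WT libraries, the opposite of their order in CPM. With a library left out these differences ran from -1.17 (without *Rag1*-/- pool 2) to -0.39 (without *Rag1*-/- pool 7) for *Il17rb* and from -0.96 to -0.39 (without WT pool 5) for *Crlf2*. *Il1rap* (-2.81), *Il1r1* (-2.41) and *Il1r2* (-1.65) were lower without overlap by wider margins. These differences carry no test, and the share of all genes lower without overlap on this scale is not given here. In the fit scaled on the same 32 genes the median log2 fold change of all genes was -2.19. That fit called 70.6% of all genes lower.

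Ratios between chains within a library do not depend on how libraries are scaled. In bulk RNA they are not a balance of chains within one cell type, and the part of the cell mixture in them was not tested. For 7 pairs an exact two-sided permutation test of the log2 ratios was made, in which 3 against 2 libraries give 10 splits and a smallest possible p of 0.1, so that no pair could reach the 0.05 level and the p-values say nothing of whether the ratios differ. Adjusted over the 7 pairs they ran from 0.467 to 0.6. The ratio of *Il1rap* to *Il1rl1*, the chains of the IL-33 receptor, was 5.51, 0.939 and 1.92 in WT pools 5, 6 and 13 and 0.179 and 0.798 in *Rag1*-/- pools 2 and 7. It was lower in both *Rag1*-/- libraries (log2 difference -2.51, exact permutation p = 0.2). This difference was -1.43 without *Rag1*-/- pool 2 and -3.59 without *Rag1*-/- pool 7. The ratio of *Il18rap* to *Il18r1* was 0.91, 0.993 and 0.808 in WT and 1.02 and 1.03 in *Rag1*-/- libraries (log2 difference 0.19, exact permutation p = 0.2). This ratio stayed between 0.808 and 1.03 in the 5 libraries, although *Il18r1* ranged from 64.1 to 748 CPM. The ratio of *Il17rb* to its partner *Il17ra* was 0.092, 0.182 and 0.16 in WT and 0.317 and 0.194 in *Rag1*-/- libraries (log2 difference 0.84, exact permutation p = 0.2). The ratios *Il17rb* to *Il1rl1* (-0.47), *Il18r1* to *Il1rl1* (0.25), *Il1r2* to *Il1r1* (0.76) and *Crlf2* to *Il7r* (-0.52) overlapped between the groups.

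Of the 8 receptor genes, 5 lie in one cluster on chromosome 1 that spans 477.63 kb in the order *Il1r2*, *Il1r1*, *Il1rl1*, *Il18r1*, *Il18rap*. *Il1rl1* ends 136 bases before *Il18r1* starts, and *Il18rap* follows after 14507 bases. Along the cluster the log2 fold changes were 0.31, -0.31, 1.71, 1.88 and 2.05, so that the higher values lay in the adjacent last 3 genes. *Il1rl2*, the IL-36 receptor, lies between *Il1r1* and *Il1rl1* and had 126, 113 and 99.4 CPM in WT pools 5, 6 and 13 and 32.3 and 42.5 CPM in *Rag1*-/- pools 2 and 7. It fell by 1.55 on the log2 scale (standard error 0.23, adjusted p = 0.0306, edgeR), next to a gene with the opposite sign. Beyond *Il18rap*, *Slc9a2*, a sodium-proton exchanger, rose (log2 fold change 2.65, standard error 0.59, adjusted p = 0.0470, edgeR) from at most 0.785 CPM in WT to 4.35 and 2.47 CPM. With the pan-leukocyte scaling *Slc9a2* had a value of 0.68 (adjusted p = 0.498, edgeR), and it had 35 counts in *Rag1*-/- pool 2. With 200 kb on each side the stretch held 17 genes, of which 13 were tested. *Il1rl2* and *Slc9a2* passed, where 5.73% of all genes tested passed. Sums over the keratinocyte markers moved with *Il1rl2* as given above, and their part in the result was not tested.

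**Figure D3:**
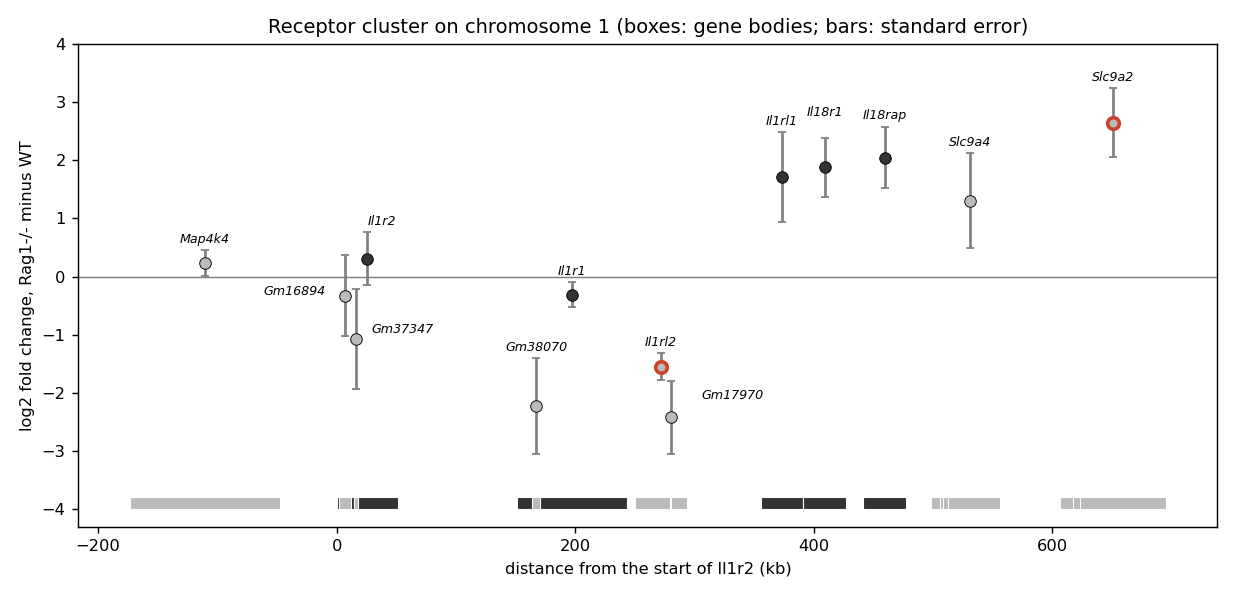
Log2 fold change (*Rag1*-/- minus WT, standard error as bars) of the 13 tested genes in the chromosome 1 cluster, by distance from the start of *Il1r2* in kb, with gene bodies as boxes (receptors black) and genes that passed the test ringed. *Il1rl1*, *Il18r1* and *Il18rap* sit side by side between 1.71 and 2.05, while *Il1rl2* lies at -1.55; with the pan-leukocyte scaling the first 2 change sign.

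The pattern of each receptor over the 5 libraries was compared with that of every other gene tested, as the root mean square difference of log2 CPM centred on the mean. *Il18r1* and *Il18rap* lay 0.132 apart, the closest pair among the 8. The gene nearest to *Il18r1* was *Il9r*, the IL-9 receptor (0.0775), followed by *Tespa1* (0.0882) and *Il7r*, the IL-7 receptor chain (0.0922). *Il9r* was also among the 3 nearest to *Il18rap* (0.105), with *Trbj1-2* and *Rasal3*. *Crlf2* was nearest to *Slc38a10* (0.0439), with *Rab43* and *Capg*, the latter coding for an actin-capping protein. *Il17rb* was nearest to *Snora69*, *Tuba3a* and *Dock10*. *Il1rl1* had no gene closer than 0.181 (*Gm24347*), with *Cd200r4* (0.246) and *Gm10521* next. These are descriptions over 5 libraries.

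The genes nearest to *Il1r2*, the decoy receptor, were *H2-Eb1* (0.0666), *Cd74* (0.0702) and *H2-DMa* (0.0955), all of antigen presentation by MHC class II. *Cd207*, which codes for langerin and marks Langerhans cells, had 177, 140 and 608 CPM in WT pools 5, 6 and 13 and 316 and 493 CPM in *Rag1*-/- pools 2 and 7. The libraries stood in the same order for *Il1r2* and *Cd207*, with a ratio of *Il1r2* to *Cd207* between 0.592 and 0.897, although *Cd207* was singled out from its list after the values were seen and was only the 55th nearest gene to *Il1r2* (0.246). The summed level of the 8 macrophage and Langerhans cell markers was 406, 426 and 956 CPM in WT and 413 and 870 CPM in *Rag1*-/- libraries, and 0 of the 8 passed (edgeR and DESeq2). *Cd207* itself made up most of this sum in WT pool 13 and both *Rag1*-/- libraries. The other 7 markers summed to 230, 286 and 347 CPM in WT and 97.3 and 377 CPM in *Rag1*-/- libraries, and 7 of the 8 markers, all but *Cd207*, were lowest in *Rag1*-/- pool 2, unlike *Il1r2*. The part of such cells in the level of *Il1r2* was not tested. *Il1r1* was nearest to *Ccdc15*, *Lamb1*, a laminin chain (0.0407), and *Gm44187*, and *Il1rap* to *Sox5* (0.0345), *Gzf1* and *Spred1*.

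Against the mean pattern of each of the 12 marker lists, a comparison made after seeing the data, the nearest list differed between receptors. *Il18r1* (0.19), *Il18rap* (0.25) and *Il1rl1* (0.62) were closest to the ILC2 markers. *Il17rb* (0.21) and *Crlf2* (0.34) were closest to the T cell markers. Of 11 tested in that list 4 rose, and DESeq2 called 5 higher and 1 lower. Over all genes tested 3.57% rose, and DESeq2 called 7.22% higher and 7.59% lower. *Cd3e* in the T cell list did not pass and had 5.46 to 7.98 CPM in WT and 9.44 and 7.42 CPM in *Rag1*-/- libraries. *Cd3g*, which rose, had 11.1, 13.2 and 19.0 CPM in WT and 68.4 and 64.1 CPM in *Rag1*-/- libraries. Of the 11 T cell genes, 10 had a positive log2 fold change and 1 a negative one, from -1.48 to 2.43. The mean pattern of this list is thus not that of each of its genes. *Il1r1* (0.19) and *Il1r2* (0.50) were closest to the fibroblast markers, with 0 of 8 called, and *Il1rap* (0.23) to the mast cell markers, with 0 of 9 called by edgeR and 1 higher and 1 lower by DESeq2. In the mast cell list *Kit* had 52.9, 179 and 127 CPM in WT and 534 and 336 CPM in *Rag1*-/- libraries, whereas *Cpa3*, a mast cell protease, had 23.5 to 33.8 CPM and then 10.2 and 21.2 CPM. Without *Kit* the mast cell markers summed to 129, 129 and 156 CPM in WT and 82.9 and 118 CPM in *Rag1*-/- libraries. The part of any such cell type in the receptor levels was not tested.

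**Figure D4:**
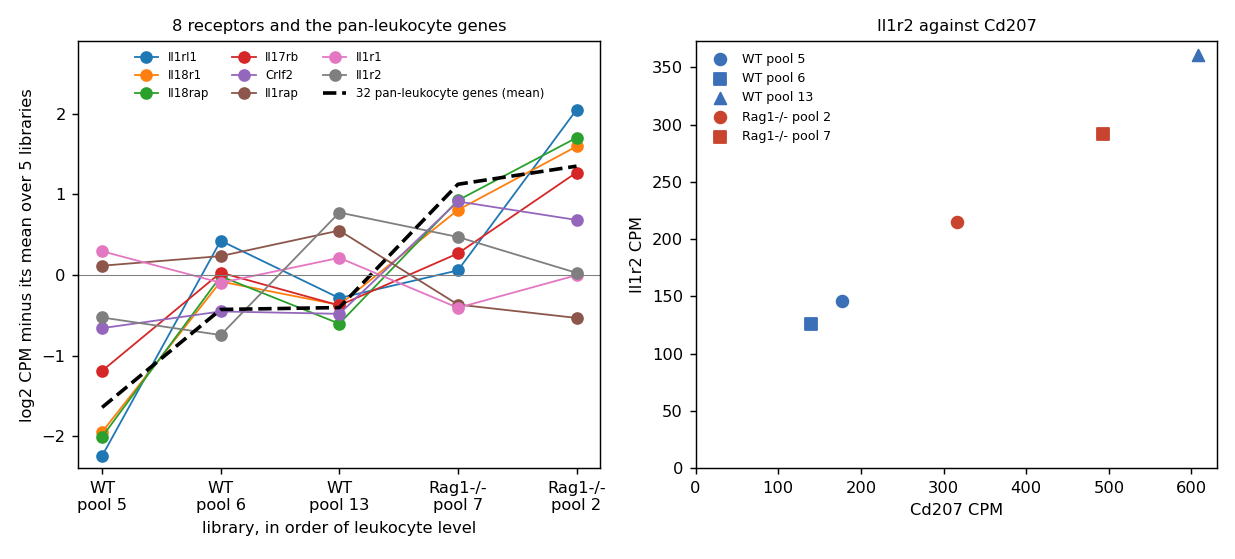
Left, log2 CPM of each receptor minus its mean over the 5 libraries, with the libraries in order of leukocyte level and the mean of 32 pan-leukocyte genes as a dashed line. Right, *Il1r2* against *Cd207* in CPM, 1 point per library. *Il18r1* and *Il18rap* run close to the dashed line, *Il1rap* and *Il1r1* do not, and *Il1r2* stands in the order of *Cd207*.

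Partners, ligands and signalling genes of the same pathways were read from the same fit. Of 6 partners and relatives 4 were tested. *Sigirr*, an inhibitory receptor of the family, rose from 8.53, 12.7 and 11.4 CPM in WT pools 5, 6 and 13 to 30.1 and 23.9 CPM in *Rag1*-/- pools 2 and 7 (log2 fold change 1.33, standard error 0.25, adjusted p = 0.0355, edgeR), but its value was -0.79 with the pan-leukocyte scaling. *Il1rl2* fell as given above. *Il7r*, the partner of *Crlf2*, had 68.9, 224 and 190 CPM in WT and 667 and 401 CPM in *Rag1*-/- libraries without passing (log2 fold change 1.75, adjusted p = 0.0746, edgeR), whereas DESeq2 called it (adjusted p = 0.00393). *Il17ra*, the partner of *Il17rb*, had a log2 fold change of 0.48 (adjusted p = 0.174, edgeR). *Il1rapl1* and *Il1rapl2* had at most 10 counts in a library and were not tested.

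Of 12 ligands and soluble inhibitors 11 were tested, of which 1 fell and none rose. Over all genes tested 2.16% fell and 3.57% rose. The ligand that fell was *Il33*, the ligand of ST2, with 155, 151 and 157 CPM in WT pools 5, 6 and 13. It had 48.1 and 67.5 CPM in *Rag1*-/- pools 2 and 7. The WT libraries agreed closely and both *Rag1*-/- libraries lay far below them. *Il33* fell by 1.38 on the log2 scale (standard error 0.23, adjusted p = 0.0306, edgeR). The keratinocyte markers moved in the same direction, and their part in the result was not tested. The median of the 11 genes was -1.05, and 9 were negative, among them *Il1rn*, the IL-1 receptor antagonist (-1.05, adjusted p = 0.181, edgeR), *Il1a* (-0.88), *Il18* (-0.76) and *Tslp* (-0.55, adjusted p = 0.431, edgeR), none of which passed. *Il1b* had a value of 0.39 with 189 and 187 CPM in WT pool 13 and *Rag1*-/- pool 7 and 55.5 to 65.0 CPM elsewhere. *Il25* had at most 2 counts in a library and was not detectable at this depth.

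Of 16 signalling adaptors and kinases 1 rose and none fell, a share near the 5.73% of all genes, with a median log2 fold change of 0.21. *Irak2*, a kinase downstream of MyD88, had 35.0, 45.8 and 40.0 CPM in WT pools 5, 6 and 13 and 89.2 and 74.1 CPM in *Rag1*-/- pools 2 and 7. It rose by 1.05 on the log2 scale (standard error 0.20, adjusted p = 0.0360, edgeR), and its value was -1.12 with the pan-leukocyte scaling. *Stat5a*, which acts downstream of the TSLP receptor, reached an adjusted p of 0.0495 (edgeR) at a log2 fold change of 0.85, under the fold threshold. *Jak2* had a value of 0.87 (adjusted p = 0.143, edgeR). *Myd88*, the adaptor of the IL-1, IL-18 and IL-33 receptors, had 106, 105 and 108 CPM in WT and 62.7 and 116 CPM in *Rag1*-/- libraries, which lay on either side of WT (-0.20, adjusted p = 0.712, edgeR).

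**Figure D5:**
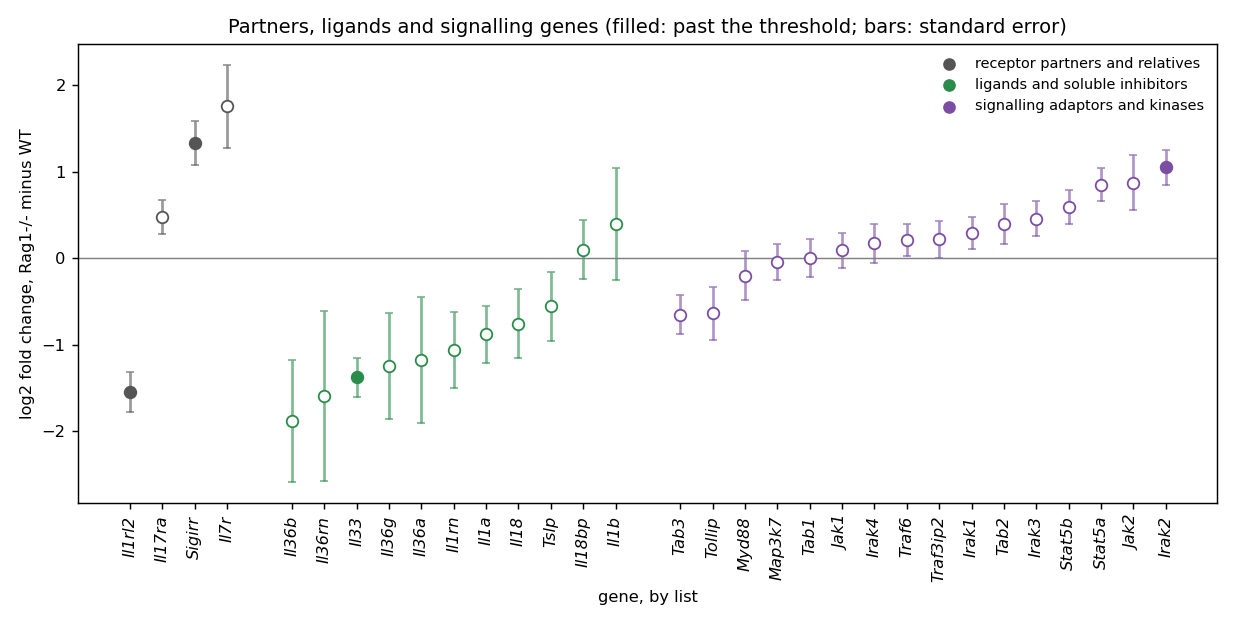
Log2 fold change (*Rag1*-/- minus WT, TMM scaling, standard error as bars) of the partners, ligands and signalling genes tested, grouped by role, with filled points for genes past the threshold. *Il33* and *Il1rl2* passed as lower and *Sigirr* and *Irak2* as higher; the latter 2 have negative values with the pan-leukocyte scaling.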

How the data were processed

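RNA of sorted dILC2s was sequenced by the authors in 5 libraries, each from a pool of mice. According to the methods and labels, the authors prepared unstranded TruSeq v2 libraries, aligned reads to GRCm38 with STAR 2.5, counted them with featureCounts 1.5.0-p1 and deposited counts per gene without normalization. The sources name different annotation releases, and the labels also list GRCm39. The authors also deposited a normalized signal (counts over DESeq2 size factors) and a transcript length per gene, used as alternatives only.

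From the deposited counts, CPM were computed on the library total. After filterByExpr, 19011 of 47729 genes were tested for a difference between genotypes by the quasi-likelihood method of edgeR 4.0.16 (R 4.3.3) with TMM factors and genotype as the only term. The thresholds were 0.05 for the adjusted p-value and 1 for the size of the log2 fold change. Log2 ratios and patterns used a prior count of 0.5. Exonic lengths came from GENCODE M21 (GRCm38), where 99.87% of matched genes lay at the deposited position, and promoter windows from RefSeq (GRCm38.p6), which held all 8 receptors. A check on simulated counts was made. Nothing says that pools shared no processing step, so p-values measure the spread between these pools. Floors of 3 counts cover counting error only.

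Alternatives were DESeq2 1.42.0, RLE scaling, library size alone, scaling on 32 pan-leukocyte genes, a filter of 10 or more counts throughout, removal of the filter, a robust fit, limma 3.58.1 on the deposited signal (pseudocount 1), the adjusted p-value alone, a prior count of 2, and each library left out. The genes named were the 8 receptors, lists of partners, ligands and signalling genes, the genes within 200 kb of the chromosome 1 cluster, the 3 genes nearest in pattern to each receptor, *Rag1* and marker lists. *Il36a*, *Il36b*, *Il36g* and *Il36rn* were matched by older symbols. Members and lists were chosen with earlier results of these data known. Marker genes singled out within a list (*Cd207*, *Cd3e*, *Cd3g*, *Kit*, *Cpa3*, *Ly6g*, *Cd79b*, *Pax5*, *Kdr*) were chosen after their values were seen. No library was left out.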

Additional observations from a re-analysis of the deposited data

How the results depend on the processing

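The fold changes of the receptors kept their direction with DESeq2, RLE scaling, library size alone, removal of the filter, a filter of 10 or more counts throughout, the robust fit and limma on the deposited signal. With the pan-leukocyte scaling 5 reversed: *Il1rl1* -0.17, *Il17rb* -0.74, *Crlf2* -0.80, *Il18r1* -0.059 and *Il1r2* -1.75. The number of receptors that passed was 1, and it was 4 with DESeq2, 3 (all lower) with the pan-leukocyte scaling, 5 without the filter, 2 with 10 or more counts throughout, and 0 to 1 with a library left out. Over all genes the 1090 calls became 2454, 13443 and 2645 in the first 3 of these settings and 0 to 2409 with a library left out. The 4 pathway calls became 26 with the pan-leukocyte scaling, 8 without the filter and 0 to 11 with a library left out. In the 4 fits with 0 calls (edgeR, all but that without *Rag1*-/- pool 7), 3521 to 5200 genes and 3 to 6 receptors had an unadjusted p under 0.05. DESeq2 was not run on these subsets. Higher genes made up 62.3% of the calls, 48.8% with DESeq2, 43.7% without the filter, 0.119% with the pan-leukocyte scaling and 33.8% without *Rag1*-/- pool 7. The cause of these differences was not tested. Where a *Rag1*-/- library was left out, the lone remaining one was assumed to vary like the WT libraries.

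With a library left out, log2 fold changes ranged from 0.46 to 2.35 for *Il1rl1*, 0.76 to 1.64 for *Il17rb*, 1.15 to 1.51 for *Crlf2*, 1.47 to 2.25 for *Il18r1*, 1.65 to 2.54 for *Il18rap*, -0.91 to -0.60 for *Il1rap*, -0.48 to -0.21 for *Il1r1* and -0.03 to 0.93 for *Il1r2*, whose sign turned without *Rag1*-/- pool 7 (-0.029). Among the log2 ratios, *Il17rb* to *Il1rl1* ran from -0.97 to 0.02 (0.021, without *Rag1*-/- pool 2) and *Il18r1* to *Il1rl1* from -0.36 (without *Rag1*-/- pool 7) to 0.85. The others ranged from -3.59 to -1.43 for *Il1rap* to *Il1rl1*, 0.11 to 0.26 for *Il18rap* to *Il18r1*, 0.33 to 1.19 for *Il1r2* to *Il1r1*, -1.01 to -0.04 for *Crlf2* to *Il7r* and 0.48 to 1.19 for *Il17rb* to *Il17ra*. Relative to the pan-leukocyte genes, *Il1rl1* ran from -1.19 to 0.58 and turned positive without WT pool 6 (0.058) and *Rag1*-/- pool 7 (0.58). *Il18r1* ran from -0.34 to 0.22 and did so in the same settings (0.099 and 0.22). *Il18rap* ran from -0.15 to 0.40 and turned negative without WT pool 5 (-0.029) and *Rag1*-/- pool 2 (-0.15). The others kept their sign, from -1.17 to -0.39 for *Il17rb*, -0.96 to -0.39 for *Crlf2*, -3.05 to -2.50 for *Il1rap*, -2.72 to -1.92 for *Il1r1* and -2.14 to -1.31 for *Il1r2*. The deposited transcript length, added after seeing the data, moved 11 of 16 levels per kb beyond the SD. No paired analysis was possible because the groups share no replicate numbers. The depth of *Rag1*-/- pool 2 limits genes near 0.373 CPM, far under the receptors.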

Other observations

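The IL-36 cytokines, epithelial relatives of IL-1 whose receptor gene *Il1rl2* fell, did not pass with edgeR, and DESeq2 called *Il36b* lower (log2 fold change -1.94, adjusted p = 0.0297). *Il36rn*, the IL-36 receptor antagonist, had 76.5, 43.4 and 49.8 CPM in WT pools 5, 6 and 13 and 1.12 and 33.5 CPM in *Rag1*-/- pools 2 and 7 (log2 fold change -1.59, adjusted p = 0.357, edgeR). *Il36g* had 42.7, 20.7 and 24.2 CPM in WT and 4.10 and 18.8 CPM in *Rag1*-/- libraries (-1.24, adjusted p = 0.251, edgeR). In both genes *Rag1*-/- pool 2 was far below every other library and WT pool 5 was the highest, while *Rag1*-/- pool 7 lay just under the WT range. *Il36a* (-1.18) and *Il36b* (-1.88) were lower in both *Rag1*-/- libraries as well, with 3 and 2 counts in *Rag1*-/- pool 2.

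Among the other marker lists, 3 of 10 NK and ILC1 genes rose (7 with DESeq2). Over all genes tested 3.57% rose (7.22% with DESeq2). The NK and ILC1 genes summed to 29.5, 92.5 and 95.6 CPM in WT pools 5, 6 and 13. In *Rag1*-/- pools 2 and 7 they summed to 229 and 263 CPM. Of 4 neutrophil genes tested 1 rose, with summed levels of 7.50 to 19.9 CPM in WT and 25.7 and 14.8 CPM in *Rag1*-/- libraries, and *Ly6g* had 0 counts in every library. With edgeR none of 5 B cell genes (9.11 to 25.2 CPM in WT against 26.5 and 11.6 CPM) and none of 8 endothelial genes (362 to 627 CPM against 174 and 394 CPM) passed. DESeq2 called *Cd79b* higher and *Pax5* lower among the former and *Kdr* lower among the latter. Summed T cell markers were 65.5 to 131 CPM in WT and 388 and 329 CPM in *Rag1*-/- libraries. Fibroblast markers summed to 7460 to 13400 CPM against 8070 and 7960 CPM, and mast cell markers to 182 to 309 CPM against 616 and 454 CPM, of which *Kit* made up most in the *Rag1*-/- libraries, and 7 of the 9 had a negative log2 fold change (median -0.48).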
